A study of Mus musculus with 14 samples.

Results

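Solute carriers are membrane proteins that move sugars, amino acids, metals, ions, vitamins and metabolites across the cell surface and the membranes of organelles. The genes described here carry symbols that start with Slc and a digit, other than Slc2a1 and Slc7a11, and were measured on Illumina bead arrays in mouse intestinal organoids. The probe table held 646 such probes for 354 symbols. A gene was kept when a probe lay above the median of its array on at least 3 of the 10 libraries used, and 268 genes with 409 probes remained. The other 86 symbols stayed at or near the floor of the arrays, with no level above 7.09 on the log2 scale. The genes were thus chosen by their level on the arrays and not by a difference between genotypes, and 18 of the kept genes passed on exactly 3 libraries, with mean levels from 6.72 to 6.79, while 26 removed genes reached the median on 2 libraries. Of the kept genes, 9 passed through libraries of 1 genotype only, and of these Slc25a54, named after its values were seen, was the only 1 called in any comparison, lower by 0.13 log2 over both series.

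The organoids, epithelial cultures grown from intestinal tissue of C57Bl mice of 2 to 3 months, all carried a tamoxifen-inducible Cre recombinase under the villin promoter, which is active in intestinal epithelium, and floxed Apc. The Apc-deleted groups had no floxed Prox1, and the Apc-Prox1-deleted groups carried floxed Prox1 beside floxed Apc. Every culture received tamoxifen for 2 days and was then kept without R-Spondin1 for 5 days, so that cells with intact Apc were selected against, and RNA was taken 7 days after tamoxifen. The comparison asks which transcripts differ when Prox1, a homeobox transcription factor, is removed from Apc-deleted epithelium. No culture with intact Apc is among the groups.

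Of the 14 deposited entries, 4 were copies of 2 arrays under conflicting labels and were set aside. This left 4 Apc-deleted libraries and 2 Apc-Prox1-deleted libraries in series 1. Series 2 kept 2 libraries a genotype. Prox1 was lower by 1.75 log2 in series 1 and by 1.39 log2 in series 2 in the Apc-Prox1-deleted libraries (limma adjusted p = 0.000948 and 0.0259), and the library of Apc-Prox1-deleted series 2 replicate 3 still read 9.53. Where the probes lie relative to the deleted exons was not analysed here. Apc itself did not pass the test in either series, and every group carries the Apc deletion. The epithelial keratin Krt8 averaged between 12.88 and 13.76 in the 4 groups, while the Epcam probe stayed at the floor in all of them. Krt8 was itself higher by 0.65 log2 in the Apc-Prox1-deleted libraries of series 1 (limma adjusted p = 0.00734). In series 2 it differed by 0.31 log2 (adjusted p = 0.376). Xist, which is transcribed from the inactive X chromosome, averaged 9.84 in the Apc-deleted group of series 1 and 6.65 to 6.68 in the other 3 groups, so in series 1 the genotype and the Xist status cannot be told apart. The Y-linked gene Eif2s3y averaged 8.27 in the Apc-Prox1-deleted group of series 1 and 6.72 in its Apc-deleted group, against 7.03 and 6.72 in series 2. Whether the replicates came from separate animals is not given, so the p-values measure the spread between these libraries.

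In the intestine, carriers of the brush border take up nutrients from the lumen, carriers of the basolateral membrane pass them to the blood, and carriers of vesicles and mitochondria distribute them within the cell. The sodium gradient set by the sodium pump drives many of them. Expression of these genes differs between absorptive, secretory and dividing cells, so in a bulk sample fewer cells of a type and less RNA per cell cannot be told apart.

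The genotypes differed in a small share of the carriers, close to the share among all genes. In series 1, 31 of the 268 genes passed the test, 17 higher and 14 lower in the Apc-Prox1-deleted libraries, which is 11.6% of the carriers against 10.6% of the 13474 genes tested. Among all genes 4.71% were higher and 5.94% lower. In series 2, 18 passed, 10 higher and 8 lower, which is 6.72% against 5.16% of all genes. Here 2.08% of all genes were higher and 3.08% lower. A gene passed, or was called, when limma's p adjusted by Benjamini and Hochberg over all 26342 probes was under 0.05, and each gene was read through its brightest probe. The median difference of the carriers was -0.01 log2 in series 1 and 0.02 log2 in series 2, next to -0.00 and 0.00 for all genes. Libraries of the genotypes did not overlap for 90 carriers in series 1, or 33.6%, and for 125 in series 2, or 46.6%. Among all genes these shares were 33.0% and 43.1%.

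Called in both series and in the same direction were 11 carriers, 7 lower and 4 higher. They made up 4.10% of the carriers, and the same was true of 3.09% of all genes. These 11 were 35.5% of the series 1 calls and 61.1% of the series 2 calls. Of all genes, 431 were called in both series, 416 of them in the same direction, and these 431 were 30.1% and 62.0% of the calls. No carrier was called in opposite directions in the series. When each library was left out in turn, 6 of the 31 series 1 calls held throughout (Slc14a1, Slc25a48, Slc27a2, Slc30a2, Slc30a3 and Slc5a6), and 3 of the 18 series 2 calls did (Slc14a1, Slc25a48 and Slc29a4). With all 14 entries taken as labelled, 28 and 2 carriers were called in series 1 and 2, and Slc14a1 was called in neither (adjusted p = 0.359 and 0.13). Of the main calls, 11 of 31 were lost in series 1 under that setting without a change of sign (Slc14a1, Slc17a4, Slc19a2, Slc25a11, Slc25a24, Slc30a3, Slc44a4, Slc46a3, Slc5a6, Slc6a8 and Slc8b1). Besides these, Slc25a17 and Slc66a1 changed sign in series 1 and were not called. In series 2, 16 of 18 were lost, and Slc25a45 and Slc29a4 were kept. With the series as a term and 1 genotype difference, 45 carriers were called, 20 higher and 25 lower, or 16.8% against 15.8% of all genes. Of all genes 7.09% were higher and 8.7% lower in that comparison.

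**Figure D1:**
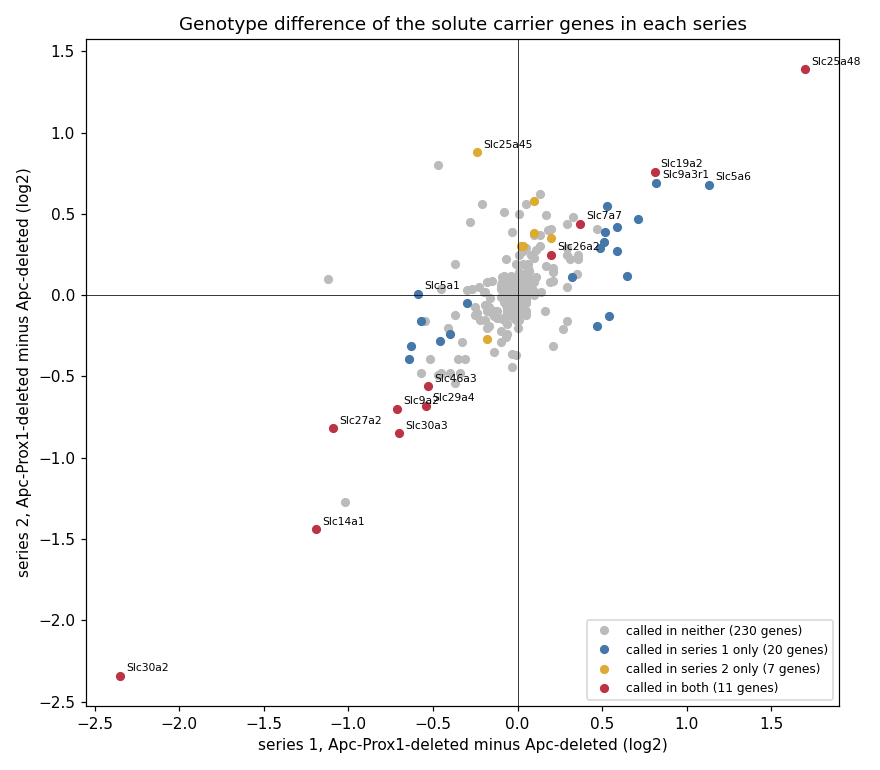
Difference between genotypes, Apc-Prox1-deleted minus Apc-deleted, for the 268 carriers, with series 1 on the x axis and series 2 on the y axis, both in log2. Each point is 1 gene, coloured by the series in which it was called. Slc30a2 lies at the lower left with -2.35 and -2.34, Slc25a48 at the upper right with 1.70 and 1.39, and most genes lie around 0.

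Zinc carriers comprised 22 measured genes, 0 higher and 2 lower in each series, with median differences of -0.02 log2 in series 1 and 0.04 log2 in series 2. Slc30a2, which moves zinc into secretory vesicles and is known from Paneth cells in mice, had the largest difference among the carriers called in each series. Its level in the Apc-deleted libraries of series 1 was 10.06, 10.02, 11.48 and 11.22, against 8.36 and 8.33 in the Apc-Prox1-deleted libraries. In series 2 it was 10.92 and 10.09 against 7.86 and 8.47. All Apc-Prox1-deleted libraries lay below all Apc-deleted libraries, with the widest spread inside the Apc-deleted group of series 1 (10.70 ± 0.77, SD, n = 4). The fall was 2.35 log2 ± 0.35 (SE) in series 1 and 2.34 log2 ± 0.40 in series 2, a 5.11-fold and a 5.06-fold lower level (limma adjusted p = 0.000332 and 0.0023). Without Apc-deleted replicate 1 or Apc-Prox1-deleted replicate 1 of series 2, the series 2 call was lost, with a highest adjusted p of 0.0577. With 1 library left out at a time, the series 2 difference lay between -2.76 and -1.92 log2. The series 2 call was also lost with all 14 entries as labelled and with the deposited ratios (adjusted p = 0.0599 and 0.1). The same held with a robust variance prior and with no variance trend (adjusted p = 0.0715 and 0.0528).

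Slc30a3, which fills synaptic vesicles with zinc in neurons, was the other zinc gene that fell. It read 7.72, 7.65, 7.88 and 7.86 against 7.09 and 7.08 in series 1, and 8.18 and 7.89 against 6.96 and 7.41 in series 2. The genotypes did not overlap in either series. The falls were 0.70 log2 ± 0.13 (SE) and 0.85 log2 ± 0.15 (adjusted p = 0.00187 and 0.00242). Its series 2 call was lost without Apc-Prox1-deleted replicate 1 of that series, where the adjusted p was 0.0609. Slc39a4, the importer of dietary zinc at the brush border, averaged 10.99 and 11.35 in series 1, and its difference of 0.36 log2 had a 95% interval from -0.00 to 0.71. Slc30a1, which exports zinc from the cell, differed by 0.21 log2 and 0.09 log2 and passed in neither series (adjusted p = 0.233 and 0.772). The zinc-binding genes Mt1 and Mt2 and the zinc-sensing factor Mtf1 were not called, while Mt3 was lower by 0.93 log2 in series 2 (adjusted p = 0.00996).

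Paneth cell markers were compared beside these values, because they mark cells in which Slc30a2 is known to act. Of 4 measured Paneth markers, 1 was called lower in series 1 and 0 in series 2. Pla2g2a averaged 9.90 and 8.06 in series 1 (difference -1.84 log2, adjusted p = 0.00585) and 11.49 and 9.86 in series 2 (difference -1.63 log2, adjusted p = 0.0517). Lyz1 averaged between 14.39 and 14.76 in all groups and was not called. The group means of Lyz2 ran from 6.66 to 6.87 and those of Mmp7 from 6.59 to 6.92, near the array floor. Summed over the list, the log2 level was 37.27 to 39.50 against 35.49 to 36.79 in series 1, and 39.30 to 40.15 against 37.40 to 37.85 in series 2. Pla2g2a had the largest difference of the 4 markers in each series, while Lyz1 differed by -0.28 and -0.23 log2. The sum thus does not show a fall across the list. Vim, a gene of mesenchymal cells that is 1 of 4 measured fibroblast markers, averaged 10.24 and 6.98 in series 1 and 11.46 and 7.41 in series 2, a called fall in each. Its other listed genes, Col1a2, Dcn and Pdgfra, stayed between 6.75 and 7.00 in every group. Whether the Paneth or the Vim pattern has a part in the zinc results was not tested.

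The 300 bases around the annotated start of both zinc genes, 250 upstream and 50 downstream, are shown because these are the 2 zinc carriers that fell in both series, with those of Slc25a48, the largest rise among the carriers called in each series, and of Slc27a2, which also fell in both. The sequences are from RefSeq on GRCm38.p6, and each is written 5′ to 3′ on the strand of its gene. Capitals mark, in all 4 windows, the TCF/LEF core CTTTGA or TCAAAG and the metal response element core, TGCACNC or TGCGCNC, and its reverse complement, GNGTGCA or GNGCGCA.
Slc30a2, chr4:134343216-134343515, plus strand: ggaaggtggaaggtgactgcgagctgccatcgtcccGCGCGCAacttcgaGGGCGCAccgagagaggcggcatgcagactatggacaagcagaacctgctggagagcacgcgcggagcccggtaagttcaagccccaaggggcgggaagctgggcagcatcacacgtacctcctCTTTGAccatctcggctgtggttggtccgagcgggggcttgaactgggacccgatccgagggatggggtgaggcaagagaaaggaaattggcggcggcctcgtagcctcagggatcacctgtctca
Slc30a3, chr5:31108195-31108494, minus strand, promoter 1 of 2: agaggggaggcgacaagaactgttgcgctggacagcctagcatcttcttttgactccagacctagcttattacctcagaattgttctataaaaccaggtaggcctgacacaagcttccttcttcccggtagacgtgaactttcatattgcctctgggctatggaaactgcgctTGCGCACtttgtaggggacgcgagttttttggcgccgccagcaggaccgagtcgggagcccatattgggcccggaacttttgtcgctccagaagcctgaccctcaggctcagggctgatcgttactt
Slc27a2, chr2:126552774-126553073, plus strand: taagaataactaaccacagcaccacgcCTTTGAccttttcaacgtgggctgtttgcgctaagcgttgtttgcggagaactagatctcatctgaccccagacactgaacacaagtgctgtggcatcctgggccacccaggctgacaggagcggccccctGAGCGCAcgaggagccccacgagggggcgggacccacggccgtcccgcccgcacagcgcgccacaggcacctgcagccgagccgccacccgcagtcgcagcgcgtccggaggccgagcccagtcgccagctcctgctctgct
Slc25a48, chr13:56438105-56438404, plus strand: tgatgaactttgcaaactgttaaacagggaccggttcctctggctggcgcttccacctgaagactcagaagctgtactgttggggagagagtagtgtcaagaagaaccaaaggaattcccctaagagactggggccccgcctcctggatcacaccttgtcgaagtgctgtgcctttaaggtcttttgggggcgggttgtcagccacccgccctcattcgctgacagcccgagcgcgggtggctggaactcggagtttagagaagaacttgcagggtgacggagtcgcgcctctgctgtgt
The Slc30a2 window held 1 TCF/LEF core, at position 175 from its 5′ end, and 2 metal response element cores. The Slc30a3 window held 1 metal response element core and no TCF/LEF core, and the Slc27a2 window held 1 of each, with the TCF/LEF core at position 28. Among the 13 promoters listed for 8 of the 11 carriers, 3 held a TCF/LEF core, which is 23.1%, against 16% of 32851 promoters of the same length. The metal response element core is in 5 of the 13, or 38.5%, those of Slc30a2, Slc27a2, Slc29a4 and Slc46a3 and the Slc30a3 window shown, against 25.7% of the 32851. The other Slc30a3 promoter listed held none. These are letter matches on both strands, and several of the listed promoters of 1 gene overlap. Slc14a1 and Slc26a2 are not shown, and Slc9a2 is named only.

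**Figure D2:**
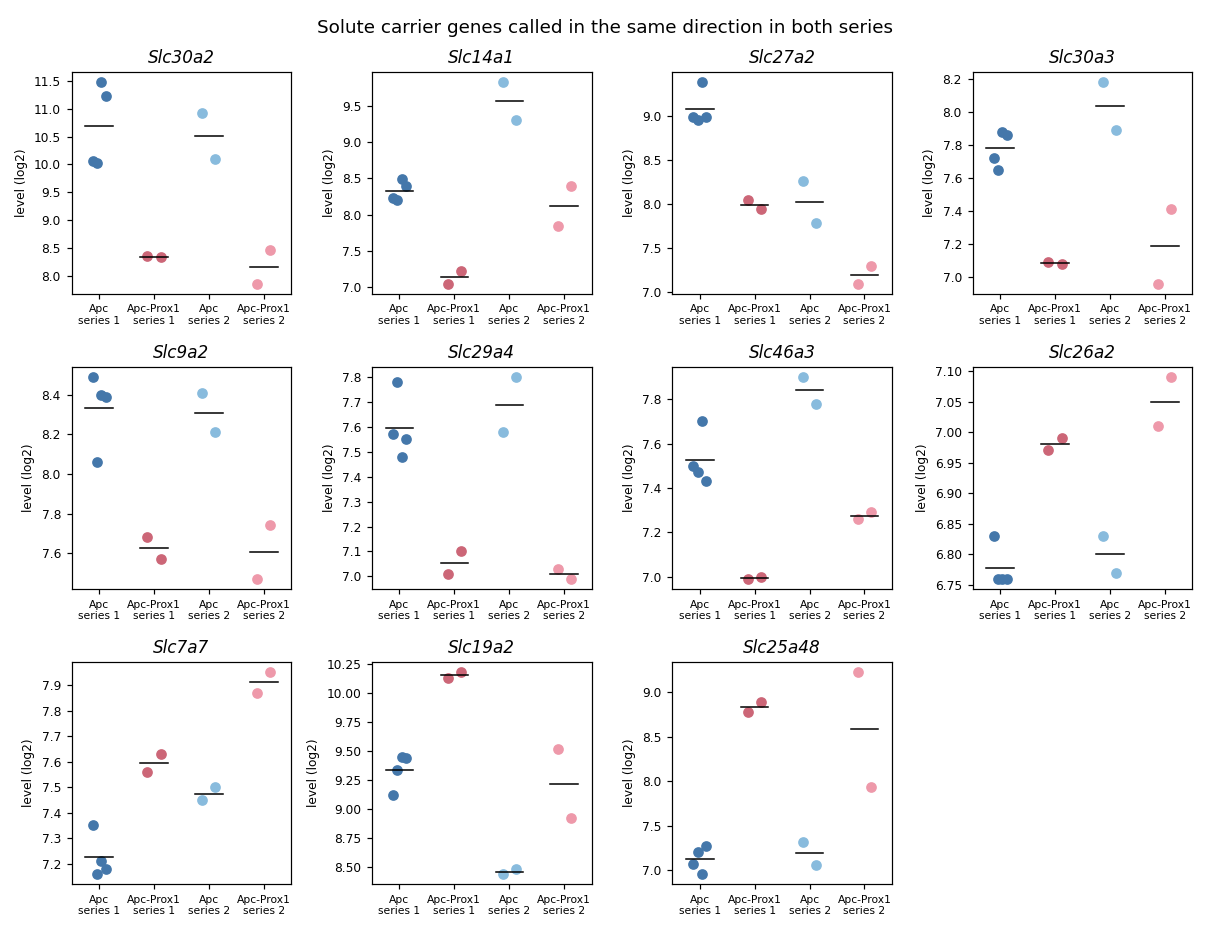
Level of the 11 carriers called in the same direction in both series, in log2, for the 10 libraries. Each point is 1 library, the bar is the group mean, each panel has its own y axis, and the Apc-deleted group of series 1 has 4 libraries and the other groups 2. In every panel the genotypes are apart within each series, by 2.35 log2 in Slc30a2 and by 0.20 log2 in Slc26a2 in series 1.

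Slc14a1, the facilitated urea transporter of red cells and several epithelia, was lower in both series. Its level was 8.23, 8.20, 8.49 and 8.40 in the Apc-deleted libraries of series 1 and 7.05 and 7.23 in the Apc-Prox1-deleted libraries. Series 2 gave 9.83 and 9.30 against 7.84 and 8.40. No Apc-Prox1-deleted library reached an Apc-deleted one of its own series. The falls were 1.19 log2 ± 0.17 (SE) and 1.44 log2 ± 0.20 (adjusted p = 0.000262 and 0.000324), and both dimmer probes of the gene also fell in each series. The other member of the urea and ammonium group was not called.

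Slc27a2, an enzyme and carrier that activates very-long-chain fatty acids, was the only 1 of 6 measured fatty acid and lipid carriers called within a series. It read 8.98, 8.95, 9.38 and 8.98 against 8.04 and 7.94 in series 1, and 8.26 and 7.79 against 7.10 and 7.30 in series 2. The genotypes were apart in both series. The falls were 1.09 log2 ± 0.16 (SE) and 0.82 log2 ± 0.18 (adjusted p = 0.000247 and 0.0135), and the dimmer probe fell by 0.75 log2 and 0.95 log2. Its series 2 call was lost without Apc-deleted replicate 1 or Apc-Prox1-deleted replicate 1 of that series, with a highest adjusted p of 0.187. Slc27a1, a related fatty acid carrier, was called only over both series (-0.40 log2, adjusted p = 0.00572).

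The sodium, potassium, chloride and proton group had 17 measured genes, with 1 higher and 1 lower in series 1 and 1 lower in series 2. Slc9a2, a sodium-proton exchanger of the apical membrane, read 8.49, 8.06, 8.40 and 8.39 against 7.68 and 7.57 in series 1, and 8.41 and 8.21 against 7.47 and 7.74 in series 2. No library overlapped with the other genotype of its series. The falls of the brightest probe were 0.71 log2 ± 0.14 (SE) and 0.70 log2 ± 0.16 (adjusted p = 0.00281 and 0.0157). The dimmer probes of Slc9a2 differed by 0.05 and 0.03 log2 in series 1 and by -0.06 and 0.12 log2 in series 2, and with the mean of its probes neither call remained. Its series 1 call was also lost without Apc-Prox1-deleted replicate 2 (adjusted p = 0.0833), and its series 2 call without replicate 1 of either genotype (highest adjusted p 0.184). Slc9a3, the main exchanger of sodium uptake at the brush border, differed by -0.47 log2 in series 1 and by 0.80 log2 in series 2, was called in neither, and had an adjusted p of 0.119 for the difference between the series. The mitochondrial sodium-calcium exchanger Slc8b1 rose by 0.52 log2 in series 1 (adjusted p = 0.0152), a call lost without Apc-Prox1-deleted replicate 1 or 2 of that series (highest adjusted p 0.23).

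Slc9a3r1, a scaffold that anchors the exchanger of the brush border and carries an Slc symbol without being a transporter, read 10.40, 10.88, 10.56 and 10.65 against 11.52 and 11.36 in series 1. In series 2 it read 10.80 and 11.18 against 11.75 and 11.60. All Apc-Prox1-deleted libraries were above all Apc-deleted ones of their own series. It rose by 0.82 log2 ± 0.17 (SE) in series 1 (adjusted p = 0.00407), while the difference of 0.69 log2 in series 2 missed the threshold at 0.053. Without Apc-Prox1-deleted replicate 1 of series 1 its call there was lost (adjusted p = 0.1).

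Nucleoside and nucleotide sugar carriers numbered 29, with 1 higher and 1 lower in series 1 and 2 higher and 1 lower in series 2. Slc29a4, which takes up monoamines at the plasma membrane although it belongs to the nucleoside transporter family, read 7.57, 7.78, 7.48 and 7.55 against 7.01 and 7.10 in series 1, and 7.58 and 7.80 against 7.03 and 6.99 in series 2. The genotypes were apart in both series. The falls were 0.54 log2 ± 0.10 (SE) and 0.68 log2 ± 0.12 (adjusted p = 0.00261 and 0.00257). Without Apc-Prox1-deleted replicate 1, the series 1 call was lost at an adjusted p of 0.0771. Slc35e1, a carrier of that superfamily without a settled substrate, rose by 0.53 log2 in series 1 (adjusted p = 0.0333) and differed by 0.55 log2 in series 2 (adjusted p = 0.0839). Its series 1 call was lost without Apc-Prox1-deleted replicate 1 or 2 or without Apc-deleted replicate 3 or 4 (highest adjusted p 0.353). The related genes Slc35a5 and Slc35e4, also without a settled substrate, rose by 0.30 log2 and 0.38 log2 in series 2 (adjusted p = 0.0241 and 0.0319), and both calls were lost without replicate 1 of either genotype and, in turn, without Apc-Prox1-deleted replicate 3 for Slc35a5 and Apc-deleted replicate 3 for Slc35e4 (highest adjusted p 0.217 and 0.314).

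Monoamine and neurotransmitter carriers numbered 7, with Slc17a8 lower by 0.46 log2 in series 1 (adjusted p = 0.00624) and none called in series 2. Slc17a8 loads glutamate into vesicles, and its call was lost without Apc-Prox1-deleted replicate 2 (adjusted p = 0.191). Of 6 measured enteroendocrine markers, 5 were called lower in series 1 and 2 in series 2. Their summed level was 51.55 to 53.95 against 44.07 to 47.45 in series 1, and 49.09 to 51.32 against 46.09 to 48.63 in series 2. Whether these markers have a part in the values of Slc29a4 and Slc17a8 was not tested.

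Vitamin, choline and cofactor carriers were 15 measured genes, 3 higher and 2 lower in series 1 and 1 higher and 1 lower in series 2. Slc5a6, which takes up biotin and pantothenate with sodium, read 8.29, 8.72, 8.80 and 8.80 against 9.85 and 9.72 in series 1, and 7.74 and 7.58 against 8.58 and 8.10 in series 2. The genotypes were apart in both series. It rose by 1.13 log2 ± 0.17 (SE) in series 1 (adjusted p = 0.000377), and its difference of 0.68 log2 ± 0.20 in series 2 did not pass (adjusted p = 0.0625). The series 1 call was lost with all 14 entries as labelled (adjusted p = 0.376). Slc19a2, the high-affinity thiamine transporter, read 9.12, 9.34, 9.45 and 9.44 against 10.13 and 10.18 in series 1, and 8.44 and 8.48 against 9.52 and 8.92 in series 2. Again no library overlapped. The rises were 0.81 log2 ± 0.17 (SE) and 0.76 log2 ± 0.20 (adjusted p = 0.00533 and 0.037). The series 1 call was lost without Apc-Prox1-deleted replicate 1 or 2 of that series (highest adjusted p 0.0927), and the series 2 call was lost under 14 of 22 alternative settings. Among these were fits without Apc-Prox1-deleted replicate 1 or 2 or Apc-deleted replicate 4 of series 1, and without Apc-deleted replicate 1 or 3 or Apc-Prox1-deleted replicate 1 of series 2 (highest adjusted p 0.378).

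Slc44a4, a carrier of thiamine pyrophosphate of the choline transporter-like family, rose by 0.71 log2 in series 1 (adjusted p = 0.00761), and its relative Slc44a3 fell by 0.63 log2 (adjusted p = 0.00286). Neither was called in series 2, where they differed by 0.47 and -0.31 log2. The call of Slc44a4 was lost without Apc-Prox1-deleted replicate 1 of series 1 and that of Slc44a3 without replicate 2 (adjusted p = 0.253 and 0.0791). Slc46a3, a lysosomal carrier related to the folate transporter Slc46a1, read 7.50, 7.47, 7.70 and 7.43 against 6.99 and 7.00 in series 1, and 7.90 and 7.78 against 7.26 and 7.29 in series 2. The genotypes were apart in both series. The falls were 0.53 log2 ± 0.10 (SE) and 0.56 log2 ± 0.11 (adjusted p = 0.00203 and 0.00734). Leaving out Apc-Prox1-deleted replicate 1 of series 1 gave 0.0511 for its series 1 call, and leaving out replicate 1 of either genotype of series 2 gave at most 0.0774 for its series 2 call. Slc46a1, the folate transporter of the proximal intestine, differed by -0.08 and 0.07 log2 and was not called.

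Mitochondrial carriers, the largest organelle group, had 39 measured genes, with 3 higher and 1 lower in series 1 and 2 higher and none lower in series 2. Slc25a48, a carrier of the inner mitochondrial membrane, had the largest rise among the carriers called in each series. It read 7.07, 7.21, 6.96 and 7.27 against 8.77 and 8.89 in series 1, and 7.32 and 7.06 against 9.22 and 7.94 in series 2. The genotypes were apart, with the Apc-Prox1-deleted libraries of series 2 spread widely (8.58 ± 0.91, SD, n = 2). The rises were 1.70 log2 ± 0.22 (SE) and 1.39 log2 ± 0.26, a 3.26-fold and a 2.62-fold higher level (adjusted p = 0.000113 and 0.00437). Leaving out 1 library at a time moved the series 2 difference between 0.75 and 2.03 log2 with a highest adjusted p of 0.0469. The series 2 call was lost with all 14 entries as labelled, with a robust variance prior, with no variance trend and with the deposited ratios (adjusted p = 0.0686, 0.0507, 0.0654 and 0.102). Of the differences with 1 library left out, 0.75 log2 came without Apc-Prox1-deleted replicate 1 of series 2 and 2.03 log2 without its replicate 3.

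Slc25a45, another carrier of that family, was the only carrier whose difference was called as unlike between the series, which is 0.373% of the carriers against 0.616% of all genes. It read 7.99, 7.54, 7.86 and 7.85 against 7.72 and 7.43 in series 1, and 6.99 and 7.24 against 7.74 and 8.24 in series 2. The genotypes overlapped in series 1 and were apart in series 2. It was called higher by 0.88 log2 in series 2 (adjusted p = 0.00672) and differed by -0.24 log2 in series 1, and the differences were 1.11 log2 apart (adjusted p = 0.031). That call was lost under 13 of 21 alternatives, among them without Apc-deleted replicate 1 or 4 or Apc-Prox1-deleted replicate 1 or 2 of series 1 and without Apc-deleted replicate 1 or Apc-Prox1-deleted replicate 3 of series 2 (adjusted p over all alternatives 0.00801 to 0.25). The series 2 call itself was lost without the last 2 libraries named (highest adjusted p 0.0985). Slc25a17, a peroxisomal carrier of cofactors, rose by 0.65 log2 in series 1 (adjusted p = 0.00734), and Slc25a24, the carrier of ATP-magnesium and phosphate, rose by 0.51 log2 (adjusted p = 0.0146). Slc25a11, the oxoglutarate-malate carrier, fell by 0.64 log2 there (adjusted p = 0.02). These 3 calls were lost without Apc-Prox1-deleted replicate 1 of series 1, and those of Slc25a24 and Slc25a11 also without replicate 2 (highest adjusted p 0.214, 0.187 and 0.239). A second Slc25a11 probe differed by -0.35 and 0.12 log2 (adjusted p = 0.213 and 0.815), and the Slc25a11 call was also lost with the mean of its probes and with no filter (adjusted p = 0.0617 and 0.0536). Slc25a5, an ADP/ATP carrier with a strong probe signal, ranged from 13.66 to 14.09 over the 10 libraries and was not called.

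**Figure D3:**
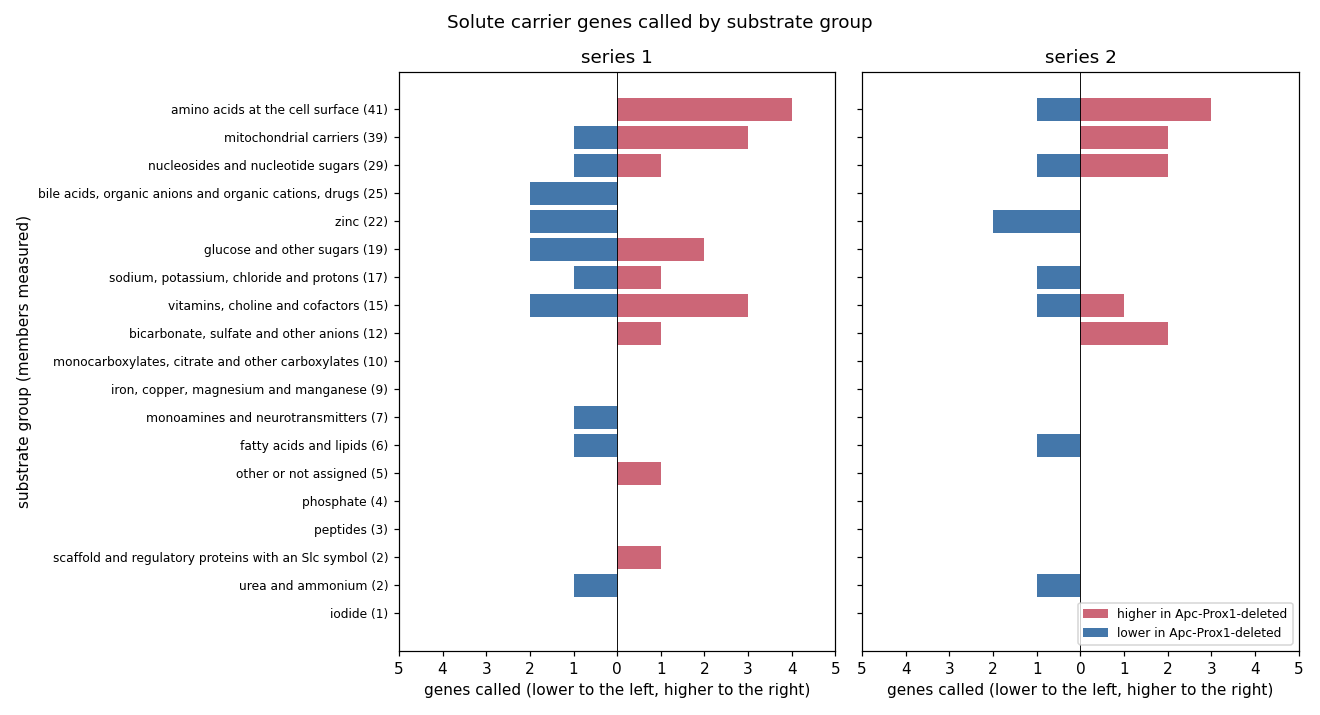
Number of carriers called in series 1 (left) and series 2 (right) by substrate group, with genes lower in the Apc-Prox1-deleted libraries drawn to the left of 0 and higher ones to the right. The y axis names the group with the number of members measured. Amino acid carriers have 4 higher and 0 lower genes in series 1, and zinc carriers 2 lower genes in both series.

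Amino acid carriers of the cell surface were the largest group, with 41 measured genes, 4 higher and 0 lower in series 1 and 3 higher and 1 lower in series 2. Slc7a7, which exports cationic amino acids at the basolateral membrane, read 7.35, 7.16, 7.21 and 7.18 against 7.56 and 7.63 in series 1, and 7.45 and 7.50 against 7.87 and 7.95 in series 2. No library overlapped. The rises were 0.37 log2 ± 0.09 (SE) and 0.44 log2 ± 0.11 (adjusted p = 0.0201 and 0.0311), of which the first was lost without Apc-Prox1-deleted replicate 1 or 2 or Apc-deleted replicate 4 of series 1 (highest adjusted p 0.259) and the second under 15 of 22 alternative settings. For the second these included fits without the same series 1 libraries and without each of the 4 libraries of series 2 in turn (highest adjusted p 0.168). A dimmer probe rose by 0.38 log2 in series 1 and differed by 0.20 log2 in series 2, and another differed by 0.09 and 0.02 log2.

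Slc6a6, the taurine transporter, has a strong probe signal and read 11.42, 11.67, 11.48 and 11.78 against 12.08 and 12.27 in series 1. It rose by 0.59 log2 there (adjusted p = 0.0354) and differed by 0.42 log2 in series 2 (adjusted p = 0.278). A dimmer Slc6a6 probe was higher by 0.28 log2 in series 1 and 0.33 log2 in series 2 (adjusted p = 0.0184 and 0.0272), and with the mean of its probes the series 1 call was lost (adjusted p = 0.0556). The X-linked creatine transporter Slc6a8 rose by 0.59 log2 in series 1 (adjusted p = 0.0121), and of 8 X-linked carriers it was the only 1 called there. Slc1a3, a glutamate transporter named after its values were seen, rose by 0.47 log2 in series 1 (adjusted p = 0.0045) and differed by -0.19 log2 in series 2. In series 2, the glutamate and aspartate transporter Slc1a1 rose by 0.58 log2 (adjusted p = 0.0128), Slc7a8, a neutral amino acid exchanger, rose by 0.30 log2 (adjusted p = 0.0297), and Slc7a2, a carrier of cationic amino acids, fell by 0.27 log2 (adjusted p = 0.0418). Within series 1, the calls were lost without Apc-Prox1-deleted replicate 1 for all 3 genes, without replicate 2 for Slc6a6 and Slc1a3, and without Apc-deleted replicate 1 or 3 for Slc6a6 (highest adjusted p 0.379). Within series 2, they were lost without Apc-deleted replicate 1 or Apc-Prox1-deleted replicate 3 for all 3 genes, without Apc-Prox1-deleted replicate 1 or Apc-deleted replicate 3 for Slc7a8 and Slc7a2, and for Slc7a2 also without Apc-Prox1-deleted replicate 1 or 2 or Apc-deleted replicate 4 of series 1 (highest adjusted p 0.262). With the mean of a gene's probes the calls of Slc1a1 and Slc7a2 were lost (adjusted p = 0.0996 and 0.363). The dimmer probes of Slc1a1 differed by -0.01 and 0.03 log2 in series 2 and that of Slc7a2 by 0.08 log2, and the Slc7a2 call was lost under 16 of 21 alternatives. Slc7a3, another cationic amino acid carrier that was named after its values were seen, read 8.15, 7.64, 9.51 and 9.08 against 7.86 and 7.30 in series 1, and 9.67 and 7.11 against 7.18 and 7.06 in series 2. Its libraries overlapped within both series, and the differences of -1.02 and -1.27 log2 did not pass (adjusted p = 0.284 and 0.287).

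Sugar carriers comprised 19 measured genes, 2 higher and 2 lower in series 1 and none called in series 2. Slc5a1, the sodium-glucose cotransporter of the brush border, read 8.46, 8.59, 8.80 and 8.73 against 8.14 and 7.96 in series 1, and 7.62 and 7.51 against 7.51 and 7.63 in series 2. The genotypes were apart in series 1 and overlapped in series 2. The fall in series 1 was 0.59 log2 ± 0.13 (SE, adjusted p = 0.00587), the series 2 difference was 0.01 log2 with a 95% interval from -0.30 to 0.31, and the test of the difference between the series gave an adjusted p of 0.311. The series 1 call was lost without Apc-Prox1-deleted replicate 2 (adjusted p = 0.174). Slc50a1, a sugar carrier of the SWEET family, fell by 0.57 log2 in series 1 (adjusted p = 0.0286). Slc37a1, a sugar-phosphate exchanger, rose by 0.54 log2 (adjusted p = 0.0265), and Slc45a3, a member of the sugar-proton symporter family, rose by 0.49 log2 (adjusted p = 0.00391). The call of Slc50a1 was lost without any of 5 libraries of series 1, Apc-deleted replicate 2 being the exception, that of Slc37a1 without Apc-Prox1-deleted replicate 1 or 2 or Apc-deleted replicate 1 or 4, and that of Slc45a3 without Apc-Prox1-deleted replicate 1 (highest adjusted p 0.213, 0.218 and 0.174). Slc5a9, a sodium-coupled sugar transporter, differed by 0.20 and 0.41 log2 at its brightest probe (adjusted p = 0.351 and 0.0941). It was called over both series (0.29 log2, adjusted p = 0.0382), a call lost under 12 of 22 alternatives. Among these were fits without Apc-Prox1-deleted replicate 1 or 2 or Apc-deleted replicate 3 or 4 of series 1, and without Apc-deleted replicate 1 or Apc-Prox1-deleted replicate 1 or 3 of series 2 (highest adjusted p 0.12). Its dimmer probe was higher by 0.32 and 0.53 log2 (adjusted p = 0.0428 and 0.00947).

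Enterocyte markers were lower in series 1 as well. Of 6 measured, 5 were called lower in series 1, with a median of -1.17 log2, and 0 were called in series 2, with a median of 0.14 log2. Lct, 1 of the 5, lay above the array median in Apc-deleted libraries only. It averaged 6.98 and 6.76 in series 1, near the array floor, so its call is no support for the pattern. The summed level of the 6 markers was 53.68 to 55.69 against 47.71 to 48.94 in series 1, and 46.13 to 48.27 against 45.38 to 50.32 in series 2. Sis, the brush border sucrase, was lower by 2.48 log2 in series 1 and differed by -0.15 log2 in series 2. Pdzk1, a brush border scaffold listed among partners of surface carriers and not among these markers, fell by 0.80 log2 in series 1 (adjusted p = 0.00364). Of 4 measured partners it was the only 1 called there. In series 2 only Bsg was called (-0.71 log2, adjusted p = 0.0213). The part of the enterocyte marker pattern in the result for Slc5a1 was not tested.

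Of the bicarbonate, sulfate and other anion carriers, 12 were measured, with 1 higher in series 1 and 2 higher in series 2. Slc26a2, the sulfate transporter, read 6.83, 6.76, 6.76 and 6.76 against 6.97 and 6.99 in series 1, and 6.83 and 6.77 against 7.01 and 7.09 in series 2. The levels are near the array median of 6.78, and the genotypes were apart. The rises were 0.20 log2 ± 0.05 (SE) and 0.25 log2 ± 0.06 (adjusted p = 0.0221 and 0.0281). The series 1 call was lost without Apc-Prox1-deleted replicate 1 or 2 or Apc-deleted replicate 3 or 4 (highest adjusted p 0.214), and the series 2 call under 11 of 21 alternatives, among them without Apc-deleted replicate 1 or 3 or Apc-Prox1-deleted replicate 3 of that series. Slc4a11, a member of the bicarbonate transporter family, rose by 0.35 log2 in series 2 (adjusted p = 0.0379), a call lost without Apc-deleted replicate 2 or 4 or Apc-Prox1-deleted replicate 1 or 2 of series 1, and without Apc-Prox1-deleted replicate 1 or Apc-deleted replicate 3 of series 2 (highest adjusted p 0.364). The anion exchanger Slc26a6 differed by -0.37 log2 in series 1, just outside the threshold (adjusted p = 0.0503).

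Bile acid, organic anion and cation carriers numbered 25, 0 higher and 2 lower in series 1 and none called in series 2. Slc17a4, an intestinal organic anion carrier, fell by 0.40 log2 (adjusted p = 0.00921), and Slc22a13, an organic anion transporter named after its values were seen, fell by 0.30 log2 (adjusted p = 0.00857). Both calls were lost without Apc-Prox1-deleted replicate 1 or 2 of series 1 (highest adjusted p 0.131 and 0.126). The basolateral bile acid exporter is formed by Slc51a and Slc51b. Slc51a averaged 8.10 and 8.15 in series 1 and 6.79 and 7.35 in series 2, with an uncalled difference of 0.56 log2 there (adjusted p = 0.113). Slc51b differed by -0.19 and -0.06 log2.

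Iron, copper, magnesium and manganese carriers were 9 measured genes, with none called in either series. Slc11a2, the iron importer of the brush border, read 9.30, 8.68, 10.42 and 9.86 against 8.69 and 8.19 in series 1. The difference of -1.12 log2 had a 95% interval from -1.88 to -0.37 and an adjusted p of 0.0635, and the libraries overlapped by 0.01 log2 between 8.68 and 8.69. In series 2 it differed by 0.10 log2. The dimmer probes of Slc11a2 differed by -0.02 and -0.47 log2 in series 1 (adjusted p = 0.967 and 0.113) and by -0.18 and 0.15 log2 in series 2. Slc40a1, the iron exporter of the basolateral membrane, differed by -0.55 and -0.16 log2, and its interval in series 1 ran from -1.12 to 0.02. Monocarboxylate and citrate carriers (10 measured), peptide carriers (3), phosphate carriers (4) and the iodide carrier (1) had none called within a series. The dipeptide transporter Slc15a1 averaged between 6.68 and 6.86 in the 4 groups, close to the array floor. Slc66a1, a lysosomal carrier of cationic amino acids, was called higher by 0.32 log2 in series 1 (adjusted p = 0.0308), a call lost without Apc-Prox1-deleted replicate 1 or 2 or Apc-deleted replicate 3 or 4 (highest adjusted p 0.4).

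Among the transporters listed for their known place in the gut, Slc2a5, Slc6a14, Slc10a2, Slc16a1, Slc34a2, Slc28a2, Slc25a4 and Slc5a8 did not pass the filter, and Slc7a5 was not analysed here. Beside the genes above, Slc12a2, the basolateral sodium-potassium-chloride cotransporter, ranged from 12.88 to 13.91 and was not called. The amino acid transporter Slc38a2 averaged 11.01 and 10.60 in series 1 with an uncalled difference of -0.41 log2 (interval -0.84 to 0.03). Slc1a4, a neutral amino acid exchanger, differed by -0.57 and -0.48 log2 and was called only over both series (adjusted p = 0.0106). The brush border amino acid transporter Slc6a19 differed by -0.23 and 0.05 log2 and was not called.

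**Figure D4:**
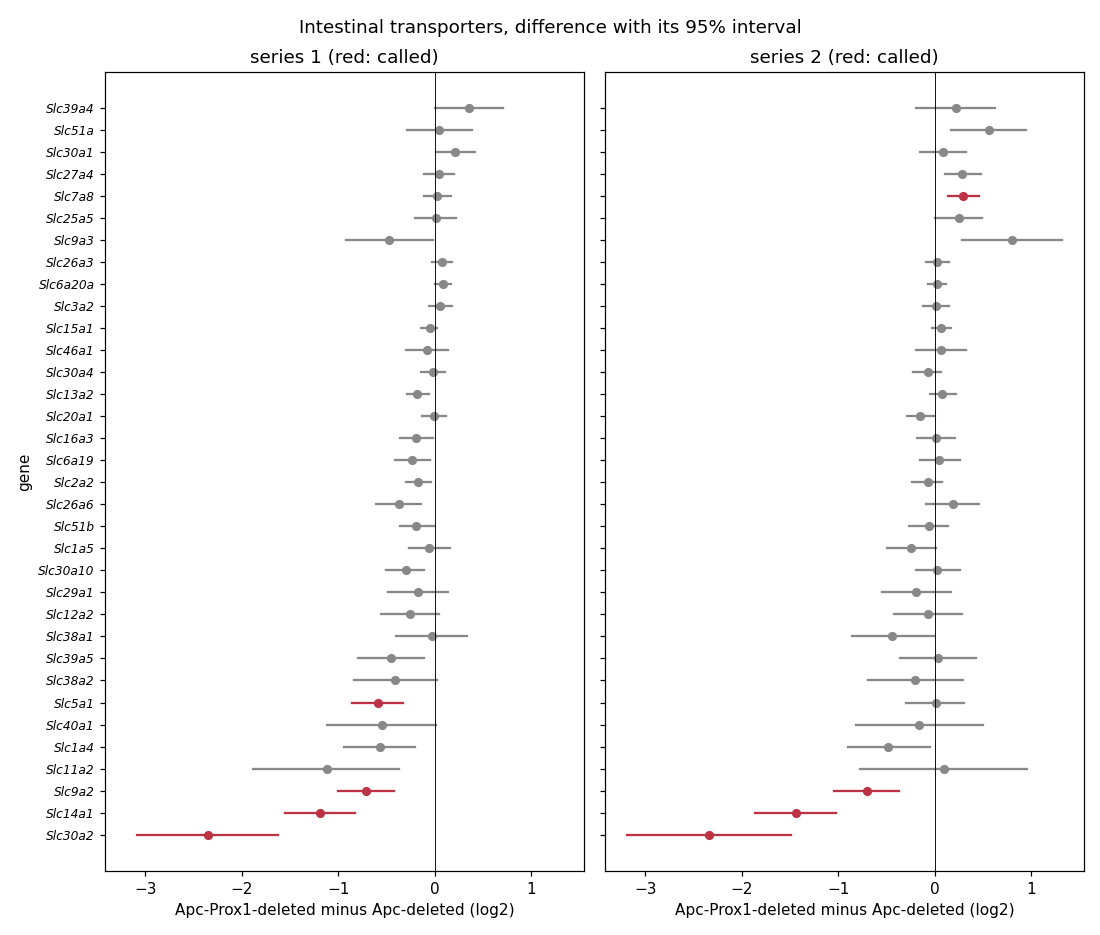
Difference between genotypes with its 95% interval for the intestinal transporters that passed the filter, on a log2 scale, with series 1 on the left and series 2 on the right. Each row is 1 gene, and red marks a gene called in that series. Slc30a2, Slc14a1 and Slc9a2 are red on both sides, Slc5a1 in series 1 only and Slc7a8 in series 2 only.

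Genes that work beside the carriers were taken from a list. Of 3 measured sodium pump genes, none was called in either series. Of 7 measured ABC transporters, which pump substrates with ATP, 3 were higher and 1 lower in series 1, and 2 were higher and 1 lower in series 2. Abcb1b, a drug efflux pump, read 6.75, 7.01, 7.01 and 6.88 against 8.40 and 8.44 in series 1, and 7.04 and 6.99 against 8.02 and 7.86 in series 2. Every Apc-Prox1-deleted library lay above every Apc-deleted one. The rises were 1.51 log2 and 0.92 log2 (adjusted p = 5.75e-08 and 0.000151). Abcg8, a subunit of the sterol exporter, fell by 1.02 and 0.80 log2 (adjusted p = 0.00101 and 0.0301). Of 4 measured genes listed for chloride transport (Cftr, Clca1, Clcn2 and Ano1), 1 was higher and 1 lower in series 1 and 1 lower in series 2. The chloride channel Cftr fell by 0.50 and 0.82 log2 (adjusted p = 0.0382 and 0.00829), and Ano1, a calcium-activated chloride channel, rose by 0.41 log2 in series 1 (adjusted p = 0.000585) and differed by -0.08 log2 in series 2. Of 5 measured genes of iron handling, 1 was higher in each series and none lower. Tfrc, the transferrin receptor, rose by 0.54 log2 in series 1 (adjusted p = 0.0358), and Heph, the oxidase that works with Slc40a1, rose by 0.85 log2 in series 2 (adjusted p = 0.0208).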

How the data were processed

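Total RNA of 14 entries was labelled with biotin and hybridised to Illumina bead arrays, per the labels' protocols. The authors deposited 1 ratio per probe and entry for 45281 probes. The values show that each ratio is a log2 level divided by the probe's median over its series, and the background correction and normalization by the authors are not stated in the labels or the header. The divisor was searched from 6 to 16 so that all products fall on steps of 0.01 log2, which gave the log2 levels of 45248 probes from the deposited ratios and left out 33. Only 5801 probes, and 52 of the 268 carriers, had 1 possible divisor in both series, and for the others the smallest was taken. A larger divisor would give higher levels and larger differences for such a probe. The log base was taken from the range of the levels, 6.35 to 15.23. Simulated probes, 4000 in number and made in this assumed form, were recovered exactly in 100% of settled cases. Because of that form, they cannot show whether the deposited values were made so or whether the smallest divisor is right for them. The deposited non-normalized table was not used, because its column names match no label, so detection p-values did not enter.

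Quantile normalization of the levels, taken over the 14 entries, and the tests used limma 3.58.1 (R 4.3.3). Among 91 pairs of entries, 2 pairs differed by at most 0.02 log2 at every probe and every other pair by 1.17 log2 or more at some probe. The 4 entries of these pairs carry conflicting labels and were set aside. The filter asked for a level above the array median on 3 or more of the 10 libraries, which left 26342 probes and 13474 genes and removed 18906. A gene was read through its brightest probe. Linear models (lmFit and eBayes with a variance trend, 2-sided) were fitted to the 4 groups with 6 residual degrees of freedom, and with terms for series and genotype with 7. P-values were adjusted by Benjamini and Hochberg over all probes at 0.05. The script was tested on simulated data. Genes named are the 10 largest rises and falls called in each series, those called between the series, the 10 brightest, the 2 with the smallest p in each substrate group and a list of gut transporters, and any other gene is said to be named after its values were seen. The members and lists were chosen with earlier results of these data known. Alternatives covered entries, normalization, filter, variance prior, array weights, probe choice, replicate block, untransformed ratios, samples in the fit and each library left out. The number of arrays limits the precision.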

Additional observations from a re-analysis of the deposited data

Results flagged for a closer look

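Within the Apc-deleted group of series 1, the only group with 4 libraries, 84 named carriers were tested for a library that stood apart from the other 3. This picked out 5 genes, and chance picks out about 1 in 20. The library that stood apart read 6.83 in Slc26a2, 9.38 in Slc27a2, 9.0 in Slc29a1, 12.52 in Slc35c1 and 8.29 in Slc5a6. The differences between the series stood 1.11 log2 apart in Slc25a45 (limma adjusted p = 0.031), called higher in series 2 and not called in series 1.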

How the results depend on the processing

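In series 1, 31 carriers were called, 65 with array weights, and 10 to 37 when each library was left out in turn, with 10 and 13 without Apc-Prox1-deleted replicate 1 or 2 of that series. In series 2, 18 were called, but 2 with all 14 entries as labelled, 4 with the values as recovered, 5 with cyclic loess, 11 with array weights, 4 with the deposited ratios and 9 with only the libraries of that series. Leaving out each library gave 5 to 22 there, with 5 without Apc-deleted replicate 1 and 10 without Apc-Prox1-deleted replicate 1 of series 2. Over both series 45 were called, 29 with all 14 entries, 69 with array weights, 13 with no series term, and 31 to 50 with each library left out. For the difference between the series 1 carrier was called, 0 with all 14 entries, with the filter on every array, with no variance trend, with the mean of a gene's probes and with the deposited ratios, and 2 with no filter, a robust prior or array weights, and 0 to 6 with each library left out. Slc25a45 lost that call with the values as recovered and with cyclic loess (adjusted p = 0.0926 and 0.107). Where a library left out leaves 1 in its group, that library is assumed to vary like the other groups. Under the replicate block, 24 were called in series 1, 20 in series 2, 27 over both series and 2 between the series. The deviations of same-numbered libraries from their group means correlated at -0.025 and 0.191 in series 1 and at 0.091 and 0.091 in series 2. In a group of 2 libraries these deviations mirror each other by construction, so the 2 values of series 2 are the same number. The correlations therefore cannot decide whether the numbers pair the libraries. Slc25a17 turned to -0.09 log2 in series 1 with all 14 entries, and Slc66a1 to -0.03 log2 in series 1 and -0.03 log2 over both series. The cause of these shifts was not tested, except that fewer libraries entered where they were left out. Under all alternatives run for a gene, 21 or 22, 3 of the 31 series 1 calls (Slc25a48, Slc27a2 and Slc30a2), 0 of the 18 series 2 calls and 12 of the 45 calls over both series kept their side of the threshold. Levels near the array median bound what dim carriers can show.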
